A study of Ovis aries with 20 samples.

Results

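ITGB6, ITGA4 and FGF7 were 3 of the 868 genes that could be named on a sheep expression array, and they held 8 of its 15008 probes. ITGB6 encodes the integrin beta 6 subunit, ITGA4 the integrin alpha 4 subunit and FGF7 the secreted fibroblast growth factor 7, also called keratinocyte growth factor. Of the 8 probes 4, A_70_P026752 for ITGB6, A_70_P026031 for ITGA4, and A_70_P029932 and A_70_P041667 for FGF7, were picked because they read lower in the interventricular septum than in the left ventricle (LV). The other 4 probes, A_70_P026751 for ITGB6, A_70_P026032 for ITGA4, and A_70_P029931 and A_70_P041666 for FGF7, carry the same gene names in the scanner files. Because the members were picked on septum against LV, that difference is described here lamb by lamb and is not tested. The cortisol differences were not used in the choice and are tested.

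The 20 arrays fall into 4 groups of 5, namely septum of cortisol lambs, septum of control lambs, LV of cortisol lambs and LV of control lambs. The cortisol lambs were born to ewes infused with cortisol, the main adrenal glucocorticoid, at 1 mg/kg per day from about day 115 of pregnancy up to delivery, and the control lambs to ewes infused with vehicle. The titles of all 20 arrays also carry the word telemetry, and the labels used here do not say what was recorded. All lambs were singletons and were killed between 10 and 480 min after birth, and the time for each lamb is not among the labels. The ewe was treated, not the lamb, and no genotype or breed is named in the labels. Each region is a piece of whole heart wall, so fewer cells of a type and less RNA per cell cannot be told apart. MB, the oxygen-binding protein myoglobin, and TPM1, a tropomyosin of the thin filament, were the 2 of 18 cardiomyocyte markers that could be named, and both were well above background on 20 of 20 arrays.

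Integrins are paired cell surface receptors, each made of 1 alpha and 1 beta subunit, that bind matrix or other cells and signal inwards. The beta 6 subunit pairs with alpha V, is found mainly in epithelia and is known for binding the latent form of TGF-beta and releasing its activity. The alpha 4 subunit pairs with beta 1 or beta 7, binds fibronectin and the endothelial adhesion molecule VCAM1, and is known in leukocytes and in the formation of the epicardium. FGF7 is released by mesenchymal cells and acts mainly on an epithelial splice form of the receptor FGFR2.

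Values are log2 of the processed spot intensity minus the 75th percentile of the same array, so 0 is the level of that percentile. A probe was tested where it was well above background, by the scanner software's own flag, on 5 or more of a region's 10 arrays, and for fits over both regions on 10 or more of 20. Of the spots of an array, 57.9% to 72.1% were well above background. The 75th percentile itself lay between 155 and 440 intensity units on septum arrays and between 98.4 and 400 on LV arrays, and the septum array was the brighter one in 9 of 10 lambs, by a median ratio of 1.68. Of the 4 slides, number 1 carried septum alone (6 arrays), number 3 LV alone (6 arrays), number 4 the LV array of cortisol lamb 4, and number 2 both regions. Region was therefore largely tied to slide, and the 3 lambs with both arrays on slide 2 (cortisol 5, control 3 and control 5) are given separately.

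The 8 probes are 60 bases long and form 4 neighbouring pairs, so members of a pair share a target and are not independent readings of it. The ITGB6 probes lie end to end on 1 partial mRNA, at bases 2704 to 2763 (A_70_P026752) and 2764 to 2823 (A_70_P026751). The ITGA4 probes overlap by 40 bases. They are shown because so long a shared stretch gave a signal above background on more than 1 array for only 1 of them, and capitals mark the shared bases.
A_70_P026032: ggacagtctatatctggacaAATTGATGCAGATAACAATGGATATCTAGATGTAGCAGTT
A_70_P026031: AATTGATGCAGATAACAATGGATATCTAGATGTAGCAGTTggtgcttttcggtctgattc

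The FGF7 probes A_70_P029932 and A_70_P029931 lie end to end on the FGF7 mRNA, at bases 502 to 561 and 562 to 621. They are shown because these direct neighbours differed in what they read in the septum. Joined, their 120 bases read as 40 codons with a single stop, the last codon, set in capitals, so both lie in the coding end of the message. The probe A_70_P029931 held 28 A among its 60 bases and A_70_P029932 held 20.
A_70_P029932: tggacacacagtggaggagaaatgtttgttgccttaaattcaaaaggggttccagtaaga
A_70_P029931: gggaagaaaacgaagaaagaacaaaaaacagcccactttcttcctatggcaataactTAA

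The second FGF7 pair, A_70_P041667 and A_70_P041666, came from 1 expressed sequence tag and share 59 bases. It carries the name FGF7 only through the gene name column of the scanner files, and none of the 3 forward reading frames of either probe was free of stops. ITGB6 A_70_P026751 likewise had no forward frame free of stops. Among the 8 probes the GC content ran from 35% to 41.7%.

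ITGB6 read lower in septum than in LV in every lamb on both of its probes. On A_70_P026752 the septum values were -0.68, -2.69, -1.27, -0.37 and -0.82 in cortisol lambs 1 to 5 and -0.41, -0.92, -0.80, -1.62 and -0.71 in control lambs 1 to 5. The LV values were 0.70, -0.87, -0.57, 0.29 and 0.81 in cortisol lambs and 1.06, 0.48, 0.70, 0.33 and 1.00 in control lambs. The regions overlapped only through the LV arrays of cortisol lambs 2 and 3. Septum minus LV was -1.39, -1.82, -0.70, -0.65 and -1.63 in cortisol lambs and -1.48, -1.40, -1.50, -1.95 and -1.71 in control lambs. The mean was -1.42 ± 0.43 (SD, n = 10 lambs), which is 2.68-fold more signal in LV. The SD was 0.53 among cortisol lambs and 0.22 among control lambs, with cortisol lambs 3 and 4 nearest to 0.

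The neighbouring ITGB6 probe, A_70_P026751, gave -1.29 ± 0.48 (SD, n = 10 lambs) and was lower in septum in 10 of 10. It was dimmer, with 9.28 to 33.7 intensity units on septum arrays and 7.68 to 93.0 on LV arrays, and was well above background on 9 of 10 septum and 10 of 10 LV arrays. Its lambs spanned -1.78 to -0.23, and cortisol lamb 3 again lay nearest to 0. Across the 10 lambs the differences on the 2 ITGB6 probes had Pearson r = 0.896 and Spearman rho = 0.794, given as a description of the values the members were picked by. Without cortisol lambs 3 and 4, the 2 farthest from the median, r was 0.721, and in the 6 lambs with septum on slide 1 and LV on slide 3 it was 0.952. Both probes share each array and its scaling.

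**Figure D1:**
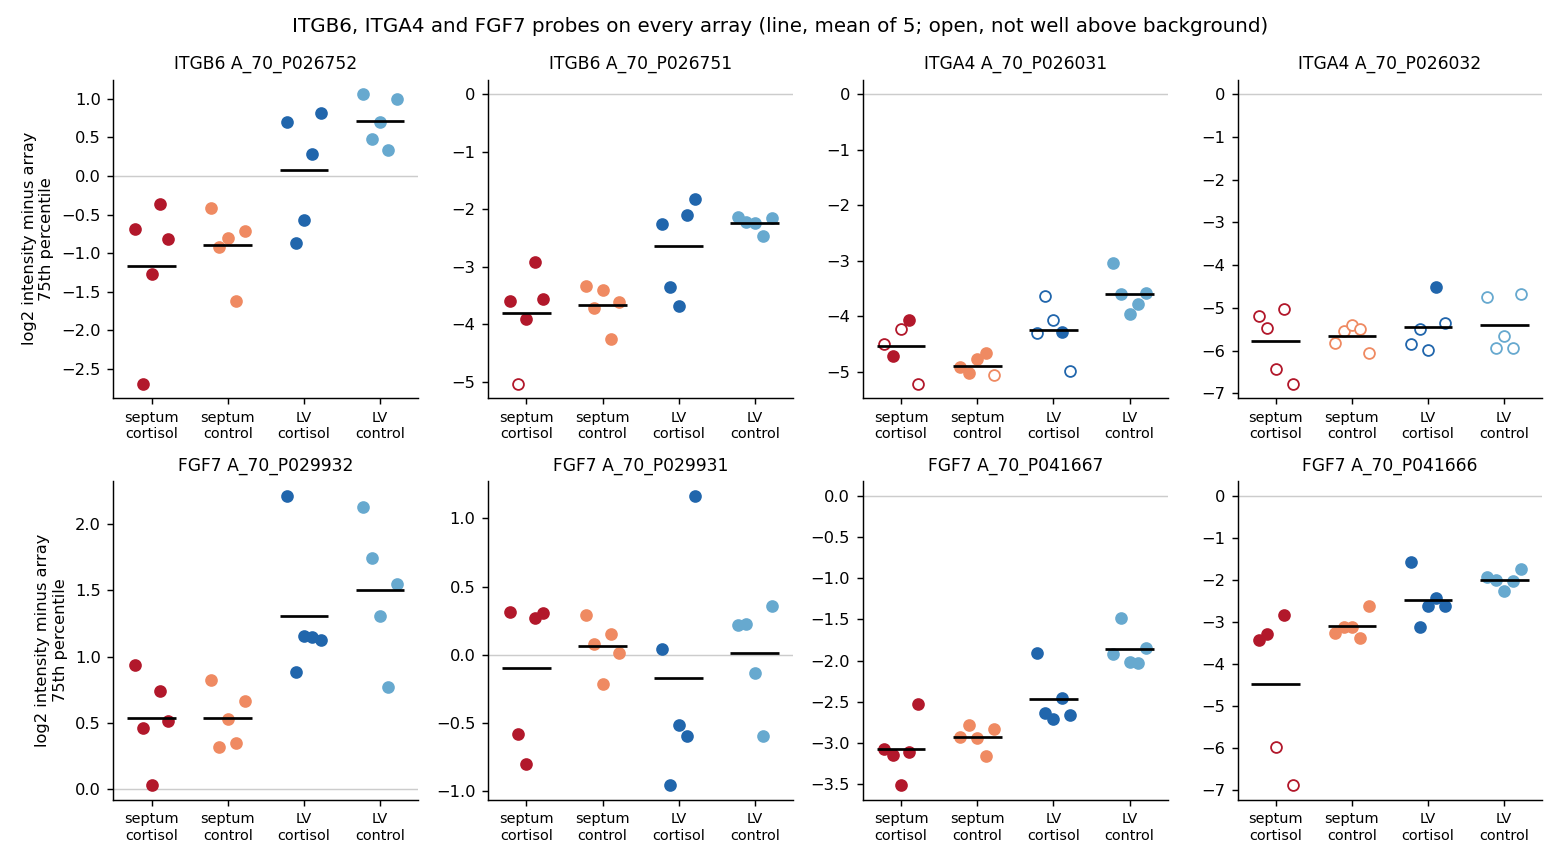
Log2 intensity minus the array's 75th percentile (vertical axis, a separate range in each panel) for the 8 probes in septum cortisol, septum control, LV cortisol and LV control arrays. Each point is 1 array, the line is the mean of 5 and open points were not well above background. The septum points lie below most LV points for ITGB6, for FGF7 A_70_P029932 and for both probes of the tag named FGF7, and the ITGA4 probe A_70_P026032 is open on all but 1 array.

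ITGA4 was close to background throughout, and its mean septum difference was -0.29 in cortisol lambs and -1.29 in control lambs. That gap did not pass its test, in a fit that did not pair the regions within lambs (limma adjusted p = 1.00). On A_70_P026031 the septum values were -4.49, -4.72, -4.23, -4.06 and -5.21 in cortisol lambs and -4.91, -5.01, -4.77, -4.67 and -5.06 in control lambs. The LV values were -4.31, -3.63, -4.07, -4.28 and -4.98 in cortisol lambs and -3.03, -3.60, -3.95, -3.78 and -3.58 in control lambs. In control lambs every septum array lay below every LV array, as for 408 of 10071 probes (4.05%), whereas in cortisol lambs the regions overlapped. Septum minus LV was -0.18, -1.08, -0.17, 0.22 and -0.23 in cortisol lambs (SD 0.48), against -1.88, -1.41, -0.82, -0.88 and -1.48 in control lambs (SD 0.44). Over all 10 lambs the mean was -0.79 ± 0.69, and 9 were lower in septum.

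The ITGA4 signal was well above background on 2 of 5 septum cortisol, 4 of 5 septum control, 1 of 5 LV cortisol and 5 of 5 LV control arrays, at a mean of 10.2, 10.7, 9.76 and 15.1 intensity units. The overlapping probe A_70_P026032 was well above background on 1 of 20 arrays, the LV array of cortisol lamb 4, and was not tested. Its septum minus LV was -0.30 ± 0.78 (SD, n = 10 lambs), lower in 5 of 10, so the second ITGA4 probe gave no region difference beyond its spread.

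On the FGF7 message itself 1 of 2 neighbouring probes read lower in septum. On A_70_P029932 the septum values were 0.94, 0.46, 0.03, 0.74 and 0.51 in cortisol lambs and 0.82, 0.31, 0.53, 0.34 and 0.66 in control lambs. The LV values were 2.22, 0.88, 1.16, 1.15 and 1.13 in cortisol lambs and 2.13, 1.75, 1.31, 0.77 and 1.55 in control lambs. Each LV array exceeded the septum array of its own lamb, although the lowest LV values fell within the septum range. Septum minus LV was -1.28, -0.42, -1.13, -0.41 and -0.62 in cortisol lambs and -1.31, -1.44, -0.78, -0.43 and -0.88 in control lambs, with a mean of -0.87 ± 0.40 (SD, n = 10 lambs), or 1.83-fold more in LV.

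The next 60 bases of the FGF7 message gave another reading. A_70_P029931, which was well above background on all arrays, stood at 0.31, -0.58, -0.80, 0.27 and 0.31 in septum of cortisol lambs and at 0.29, 0.08, -0.21, 0.16 and 0.01 in septum of control lambs. In LV it stood at 0.04, -0.96, -0.51, -0.60 and 1.17 in cortisol lambs and at 0.22, 0.22, -0.13, -0.60 and 0.36 in control lambs. The regions overlapped fully, and septum minus LV was 0.06 ± 0.52 (SD, n = 10 lambs), lower in 5 of 10. The region difference on A_70_P029932 was below that on A_70_P029931 in 9 of 10 lambs, by a mean of -0.93 ± 0.53 (SD), and the exception was cortisol lamb 5, at 0.24. The lambs' differences on these neighbours had Pearson r = 0.371 and Spearman rho = 0.455. Without control lambs 1 and 2, r was 0.405, and in the 6 lambs with septum on slide 1 and LV on slide 3 it was 0.758.

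The expressed sequence tag named FGF7, which could not be aligned to FGF7 here, was lower in septum on both of its nearly identical probes. On A_70_P041667 the septum values were -3.07, -3.14, -3.51, -3.11 and -2.52 in cortisol lambs and -2.92, -2.78, -2.94, -3.15 and -2.82 in control lambs. The LV values were -1.90, -2.63, -2.70, -2.46 and -2.66 in cortisol lambs and -1.92, -1.49, -2.02, -2.03 and -1.85 in control lambs. In control lambs no septum array reached any LV array, again as for 4.05% of all probes. Septum minus LV was -1.16, -0.51, -0.81, -0.65 and 0.13 in cortisol lambs, against -1.001, -1.29, -0.92, -1.12 and -0.97 in control lambs, with a mean of -0.83 ± 0.41 (SD, n = 10 lambs) and 9 of 10 lower in septum. The exception was again cortisol lamb 5.

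The probe shifted by 1 base, A_70_P041666, was lower in septum in 10 of 10 lambs, at -1.56 ± 1.30 (SD). Much of that spread came from the septum arrays of cortisol lambs 3 and 5, at -5.98 and -6.88, which were not well above background on this probe, whereas the other 3 septum cortisol arrays lay between -3.44 and -2.84. Without these 2 lambs the mean was -0.997 ± 0.54 (SD, n = 8 lambs), lower in septum in 8 of 8. On A_70_P041667 the same 2 arrays were well above background. The 2 probes share 59 of 60 bases, yet their lamb differences had Pearson r = -0.491 and Spearman rho = 0.127, and without cortisol lambs 2 and 5 r was 0.01. Among the other 4 pairs of FGF7 probes r ran from -0.388 to 0.670.

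**Figure D2:**
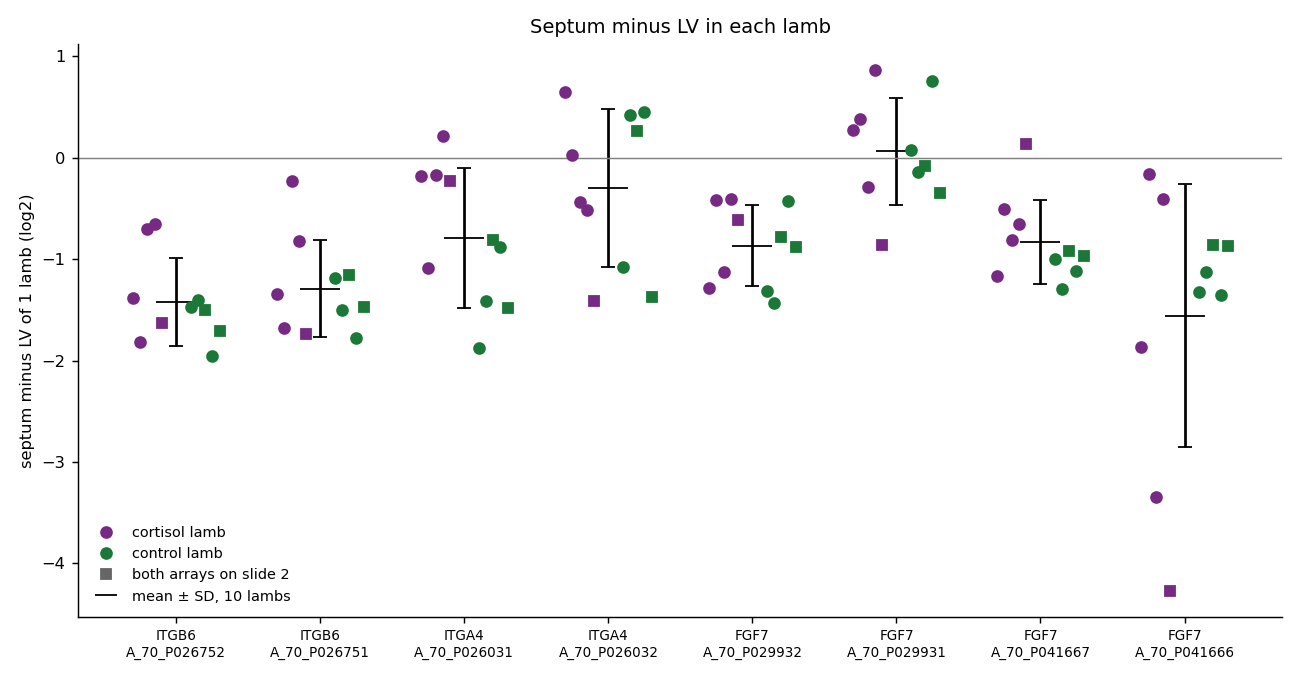
Septum minus LV on the log2 scale (vertical axis) in each of 10 lambs for the 8 probes. Violet is cortisol, green is control, squares are the 3 lambs with both arrays on slide 2, and the bar is the mean with its SD. Every lamb lies below 0 for both ITGB6 probes, for FGF7 A_70_P029932 and for FGF7 A_70_P041666, and FGF7 A_70_P029931 straddles 0.

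**Figure D3:**
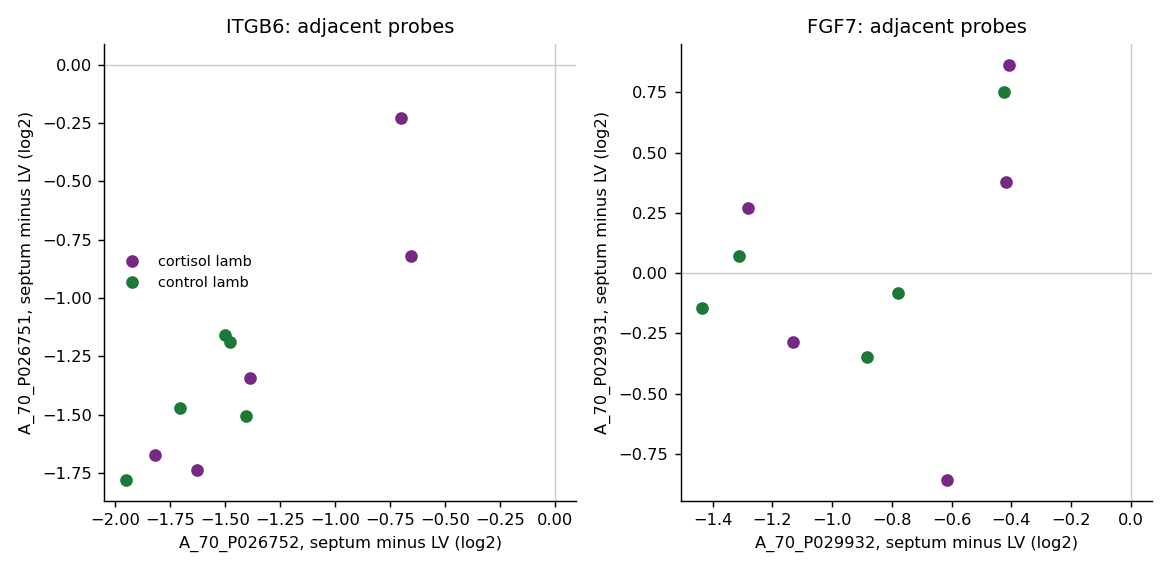
Septum minus LV (log2) of each lamb on one probe (horizontal axis) and on its end-to-end neighbour (vertical axis), for ITGB6 on the left and FGF7 on the right, with cortisol lambs in violet and control lambs in green. Over the 10 lambs r was 0.896 for ITGB6 and 0.371 for FGF7. In the 6 lambs with septum on slide 1 and LV on slide 3 it was 0.952 and 0.758.

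In the fit over all probes 55 of 10071 (0.546%) differed between regions at an adjusted p under 0.05, 51 of them (0.506%) lower in septum. With the lamb as a block 1772 of 10071 did. Counted from the largest septum deficit, A_70_P026752 was at place 14, A_70_P026751 at 23, A_70_P029932 at 83, A_70_P041667 at 96, A_70_P026031 at 123 and A_70_P029931 at 5879. Of these, A_70_P026752, A_70_P029932, A_70_P041667 and A_70_P026031 were picked for this deficit, so their places describe the choice. A_70_P041666 was at place 9 with its mean of -1.56, which was -0.997 without the 2 lambs with dim septum arrays. Just inside the threshold a probe had a difference of -0.67 (adjusted p = 0.0497), and just outside it one had -0.75 (adjusted p = 0.0503). Lower values in septum in every lamb were found for 339 probes (3.37%), which include 4 of the 7 tested members, a count that the choice of the members bears on. All septum arrays lay below all LV arrays for 3 probes (0.0298%), none of them a member.

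Within the 3 lambs of slide 2, ITGB6 kept the size of its difference, at -1.61 on A_70_P026752 and -1.46 on A_70_P026751, lower in septum in 3 of 3 on each. The same lambs gave -0.84 for ITGA4 on A_70_P026031 (-1.48 to -0.23), -0.76 for FGF7 on A_70_P029932, -0.59 on A_70_P041667 and -0.43 on A_70_P029931. Of these, A_70_P041667 was lower in septum in 2 of 3 lambs and each of the others in 3 of 3. FGF7 A_70_P029931 was thus lower in septum in these 3 lambs and higher on average (0.27) in the other 7. With slide as a block in the fit over all arrays the region differences were -1.41 on A_70_P026752, -0.69 on A_70_P029932, -0.57 on A_70_P041667 and -0.48 on A_70_P026031, and 0 of 10071 probes passed.

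The dim members depended on the setting for the spot background. The alternative setting, normexp, took off background and also added an offset of 50. ITGB6 A_70_P026751, for example, read at most 93.0 intensity units. An offset of that size pulls dim values together, so for dim probes background removal and offset cannot be told apart. With normexp background correction of the raw spot means, ITGB6 A_70_P026752 stood at -0.99 ± 0.39 and FGF7 A_70_P029932 at -0.77 ± 0.41 (SD, n = 10 lambs), each lower in septum in 10 of 10. The dim probes shrank to within their spread, to -0.38 ± 0.88 on ITGB6 A_70_P026751, -0.13 ± 1.02 on ITGA4 A_70_P026031, -0.27 ± 0.80 on FGF7 A_70_P041667 and -0.31 ± 0.74 on FGF7 A_70_P041666. In this order they were lower in septum in 8, 7, 6 and 7 of 10 lambs. Cortisol lamb 1 (0.66 to 1.20) and control lamb 4 (1.27 to 1.96) were higher in septum on each of them. Quantile and median scaling moved the 7 tested members by at most 0.05. Without any scaling between arrays ITGB6 A_70_P026752 was still lower in septum in 10 of 10 lambs, at -0.76 ± 0.66, and FGF7 A_70_P029932 in 7 of 10, at -0.20 ± 0.60.

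**Figure D4:**
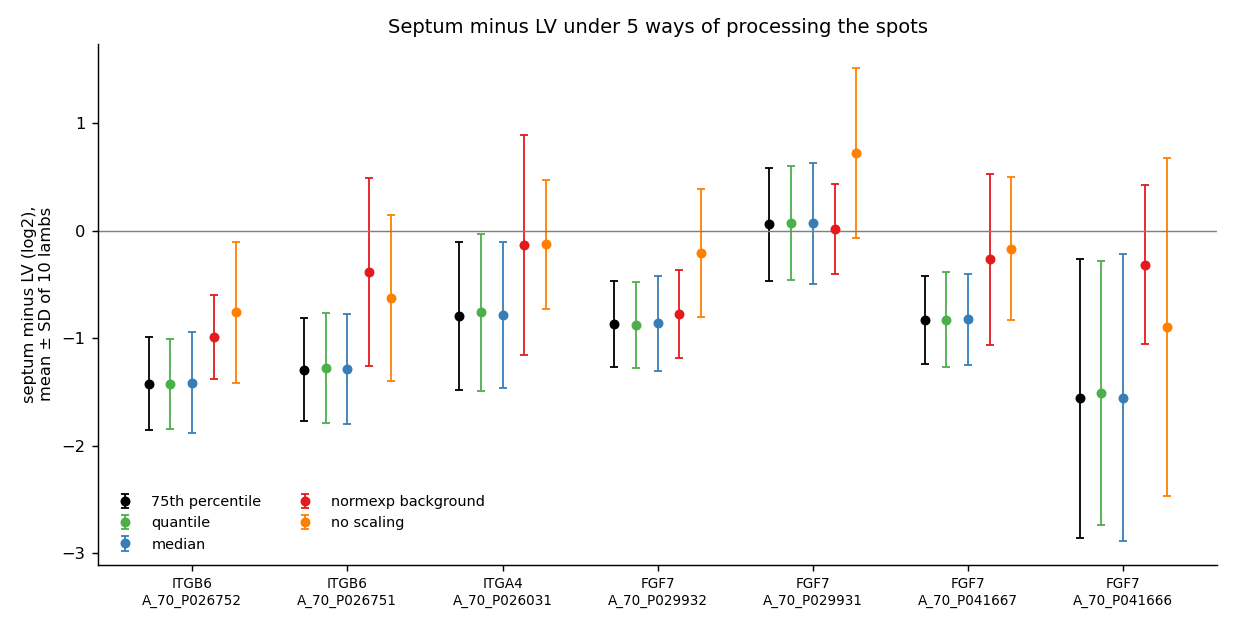
Mean septum minus LV on the log2 scale (vertical axis) with the SD over 10 lambs, for the 7 tested probes under 5 ways of processing. The first 3 settings coincide, and normexp background correction brings ITGA4 A_70_P026031 to -0.13 while FGF7 A_70_P029932 stays at -0.77.

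For maternal cortisol the comparison asks whether these transcripts differ in the newborn's heart after the ewe was infused, in septum and in LV. In septum none of the 7 tested member probes passed, among 0 of 10372 probes (0%; 384, or 3.7%, had an unadjusted p under 0.05), and 0 members were among those 384. ITGA4 A_70_P026031 averaged -4.54 ± 0.45 in cortisol and -4.88 ± 0.17 in control septum (SD, n = 5 each), a difference of 0.34 ± 0.22 (SE; limma adjusted p = 0.818). ITGB6 A_70_P026752 averaged -1.16 ± 0.91 in cortisol and -0.89 ± 0.45 in control septum, a difference of -0.27 ± 0.40 (limma adjusted p = 0.874). Cortisol array 2 alone stood far below the rest of its group, and without it the ITGB6 difference was 0.11.

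FGF7 A_70_P029932 had nearly equal means, 0.53 ± 0.34 in cortisol and 0.53 ± 0.21 in control septum, with a difference of 0.00 ± 0.19 (SE; limma adjusted p = 0.999). FGF7 A_70_P041667 differed by -0.15 ± 0.19 (limma adjusted p = 0.852) and A_70_P029931 by -0.16 ± 0.25 (limma adjusted p = 0.877). A_70_P041666 differed by -1.38 ± 0.71 (limma adjusted p = 0.818), with the 2 cortisol arrays that were not well above background lowest, and by -0.01 with normexp background correction.

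In LV none of the 7 tested member probes passed, among 0 of 9795 probes (0%; 505, or 5.16%, had an unadjusted p under 0.05). Of the members FGF7 A_70_P041667 and ITGA4 A_70_P026031 were among those 505. FGF7 A_70_P041667 averaged -2.47 ± 0.33 in cortisol and -1.86 ± 0.22 in control LV (SD, n = 5 each). Its difference of -0.61 ± 0.20 (SE; limma unadjusted p = 0.0109, adjusted p = 0.880) had all 5 cortisol arrays below the control mean, as had 557 probes (5.69%). Cortisol LV array 1, at -1.90, overlapped the control arrays, and the other 4 lay below all of them. ITGA4 A_70_P026031 averaged -4.25 ± 0.49 in cortisol and -3.59 ± 0.35 in control LV, a difference of -0.66 ± 0.26 that did not pass (limma adjusted p = 0.880). It was well above background on 1 of 5 cortisol and 5 of 5 control LV arrays, so it entered the LV fit through the control arrays, and the difference sets a group mostly at background against a detected one. With normexp background correction this ITGA4 difference was -0.06 and that of FGF7 A_70_P041667 was -0.20.

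ITGB6 A_70_P026752 averaged 0.07 ± 0.75 in cortisol and 0.72 ± 0.32 in control LV (SD, n = 5 each), a difference of -0.64 ± 0.34 (SE; limma adjusted p = 0.880). Cortisol arrays 2, 3 and 4 lay below all control arrays, array 4 only just, and arrays 1 and 5 lay among them. A_70_P026751 differed by -0.40 ± 0.34 (limma adjusted p = 0.885). On slide 3 alone, with 3 arrays of each treatment, ITGB6 A_70_P026752 differed by -0.87, ITGA4 A_70_P026031 by -0.53 and FGF7 A_70_P041667 by -0.60. On slide 2 alone, with 1 cortisol and 2 control arrays, the 3 values were -0.04, -1.21 and -0.72.

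FGF7 A_70_P029932 averaged 1.31 ± 0.52 in cortisol and 1.501 ± 0.51 in control LV, a difference of -0.20 ± 0.30 (SE; limma adjusted p = 0.932). Its neighbour A_70_P029931 differed by -0.19 ± 0.37 (limma adjusted p = 0.947) and A_70_P041666 by -0.48 ± 0.26 (limma adjusted p = 0.880). Averaged over both regions of each lamb, the differences ran from -0.93 ± 0.40 (A_70_P041666) to -0.10 ± 0.23 (A_70_P029932), and 0 of 10071 probes (0%; 519, or 5.15%, unadjusted) passed. FGF7 A_70_P041667 stood at -0.38 ± 0.16 there (limma adjusted p = 0.815).

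**Figure D5:**
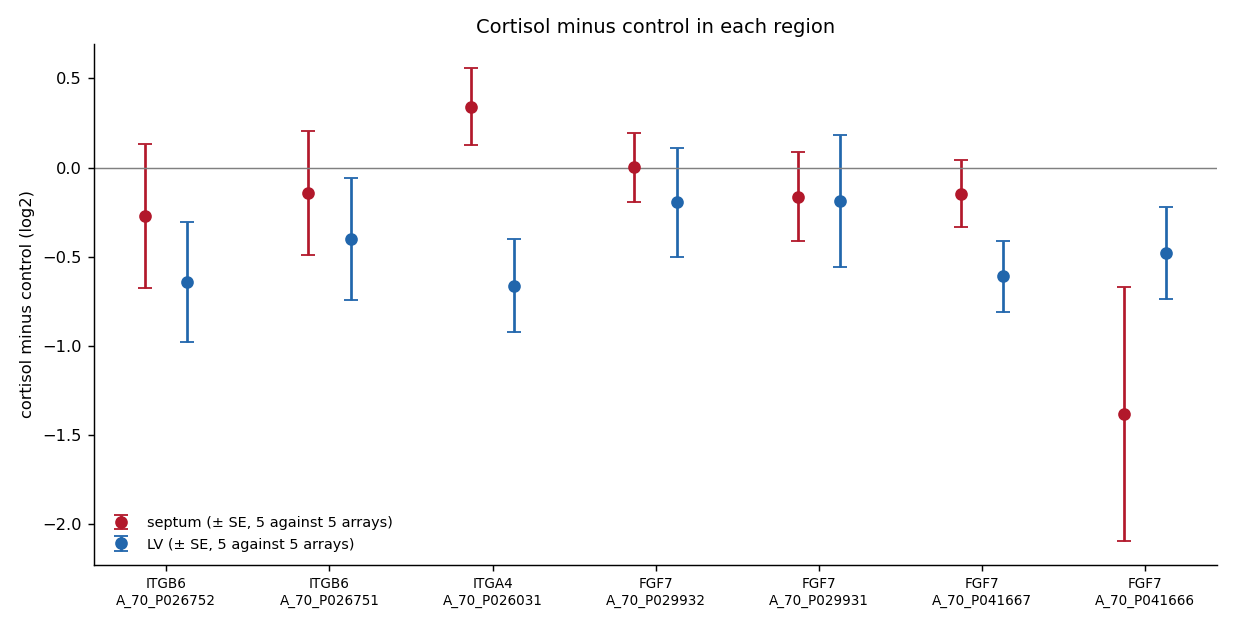
Cortisol minus control on the log2 scale (vertical axis) with its SE for the 7 tested probes, septum in red and LV in blue, 5 against 5 arrays each. All LV points lie below 0, ITGA4 lies on opposite sides of 0 in septum (0.34) and LV (-0.66), and no point passed the test.

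No probe passed for a cortisol difference that itself differed between regions (0% of 10071; 38, or 0.377%, had an unadjusted p under 0.05). That fit treated the septum and LV arrays of a lamb as independent, although they deviated together (r = 0.447 to 0.813). With the lamb as a block 362 of 10071 probes had an unadjusted p under 0.05, and 0 passed. The SEs and the adjusted p below come from fits without that block. On ITGA4 A_70_P026031, which was among those 38, the septum difference exceeded the LV difference by 1.01 ± 0.34 (SE; limma adjusted p = 1.00). This probe was well above background on 3 of 10 cortisol and 9 of 10 control arrays, so its value describes signals near background, and with normexp background correction it was 0.26 ± 0.64. The other members lay between -0.90 ± 0.80 on FGF7 A_70_P041666 and 0.46 ± 0.26 on FGF7 A_70_P041667.

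The partners of these genes were measured only in part, since 1400 of the probes could be given a gene name. Of 24 other integrin subunits 8 were named and 5 tested, and 0 of 5 passed for cortisol in septum, for cortisol in LV or between regions. ITGAV, the alpha V partner of beta 6, differed between septum and LV by 0.37 ± 0.47 (SD over 10 lambs) and ITGB1, the beta 1 partner of alpha 4, by -0.01 ± 0.23. For cortisol ITGAV differed by -0.03 ± 0.18 in septum and 0.14 ± 0.34 in LV (SE), and ITGB1 by 0.16 ± 0.19 in septum and 0.08 ± 0.15 in LV. ITGB5, another partner of alpha V, was at -0.22 ± 0.14 in septum and -0.23 ± 0.21 in LV, and ITGA5, a fibronectin receptor subunit, at -0.34 ± 0.29 and -0.02 ± 0.29. The median cortisol difference of the 5 subunits was -0.03 in septum and -0.02 in LV, beside 0.03 and -0.01 over all probes tested, and with normexp background correction it was 0.11 in septum and 0.00 in LV.

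Among 18 ligands of these integrins and of latent TGF-beta 8 were named and 5 tested, and none passed for cortisol. TGFB1, the cytokine whose latent form binds alpha V beta 6, differed between septum and LV by -0.41 ± 0.27 (SD), lower in septum in 10 of 10 lambs, and TGFB2 by -0.49 ± 0.25, also in 10 of 10. In the fit over all probes their adjusted p was 0.296 for TGFB1 and 0.494 for TGFB2. With the lamb as a block both passed, at a limma adjusted p of 0.0107 for TGFB1 and 0.00461 for TGFB2, the 2 of 5 ligands that did. Under that block 1772 of all 10071 probes passed. Cortisol differences were 0.15 ± 0.24 in septum and -0.01 ± 0.23 in LV for TGFB1 (SE), and 0.39 ± 0.40 and 0.31 ± 0.33 for TGFB2. ICAM1, a leukocyte adhesion molecule, was at 0.99 ± 0.46 in septum (adjusted p = 0.818) and 1.33 ± 0.69 in LV (adjusted p = 0.880). It was well above background on 16 of 20 arrays, with 3 of 5 among LV control arrays. VCAM1, the alpha 4 ligand, was well above background on 0 of 20 arrays. Of 21 adhesion signalling genes 3 were tested and none passed, with the small GTPases RAC1 at 0.29 ± 0.22 in septum and 0.21 ± 0.18 in LV and RHOA at 0.23 ± 0.19 and 0.16 ± 0.19.

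Of 21 other FGF ligands 4 were named and tested, and none passed for cortisol. All 4 had positive cortisol differences in both regions, with medians of 0.43 in septum and 0.50 in LV, whereas FGF7 A_70_P029932 had 0.00 and -0.20. In septum 1 of the 4 turned negative with normexp background correction, and on slide 2 alone 2 of 4 were negative in each region. FGF1 was at 0.29 ± 0.17 in septum and 0.22 ± 0.21 in LV (SE), FGF2 at 0.22 ± 0.28 and 0.41 ± 0.29, and FGF10, a close relative of FGF7, at 0.56 ± 0.42 and 0.78 ± 0.59. FGF10 was well above background on 12 of 20 arrays. Between septum and LV, FGF2 differed by -0.52 ± 0.35 (SD, 9 of 10 lambs lower in septum) and FGF10 by -0.41 ± 0.53. With the lamb as a block FGF2 passed (limma adjusted p = 0.0108), as 1 of the 4, beside 1772 of all 10071 probes. Without the block none of the 4 did.

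FGFR2, the FGF7 receptor, was well above background on 2 of 20 arrays, both septum cortisol arrays, and was not tested. FGFR1, the receptor of many other FGFs, differed by 0.17 ± 0.17 in septum and 0.23 ± 0.25 in LV for cortisol (SE), and no other of the 16 receptors and co-receptors was tested. SPRY4, a feedback inhibitor of FGF signalling and the 1 tested gene of 18 on its list, was at -0.15 ± 0.28 in septum and -0.64 ± 0.36 in LV. None of these passed.

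Markers of cells that use these genes were read beside them. Of 14 epithelial, mesothelial and epicardial markers 3 were named. KRT19, an epithelial keratin, was well above background on 0 of 20 arrays, whereas WT1, an epicardial transcription factor, and CLDN3, a tight junction claudin, were on 20 of 20. WT1 differed between septum and LV by 0.05 (limma adjusted p = 0.966). CLDN3 A_70_P059323 stood at 7.16 on the septum array of control lamb 4, against -2.94 to -0.85 on the other 19 arrays, while a second CLDN3 probe, A_70_P059324, read -1.83 on that array. Septum minus LV on A_70_P059323 was 1.09 ± 2.96 (SD, n = 10 lambs) with that lamb and 0.16 ± 0.30 (n = 9) without it. Of 12 fibroblast markers 6 were tested and 4 of 6 were lower in septum, with COL3A1, a fibrillar collagen, at -1.36 ± 0.51 (SD) and COL1A2 at -1.12, each in 10 of 10 lambs. The fibroblast marker DCN stood at only -0.04, lower in 6 of 10. COL6A1 at 0.32 and FBLN1 at 0.21 were higher in septum on average, and lower in 3 and 1 of 10 lambs. None of the 6 passed in the fit without a block. With the lamb as a block, under which 1772 of all 10071 probes passed, 3 of 6 did. They were COL3A1 (limma adjusted p = 0.000599), COL1A2 (0.000822) and COL1A1, another fibrillar collagen chain (-0.60, adjusted p = 0.0145). The summed fibroblast level ran from 33.1 to 74.0 in septum cortisol, 31.5 to 52.6 in septum control, 32.5 to 93.9 in LV cortisol and 35.6 to 59.0 in LV control arrays, in multiples of the 75th percentile. This sum is mostly DCN, whose group means were 5.27 to 5.62 on the log2 scale. COL3A1 had 0.82 to 2.32 and the other markers lay below 0, so the sum says little of the collagens. Of 14 leukocyte markers 6 were tested and 2 were lower in septum. They were TYROBP, a myeloid adaptor, at -0.64 (limma adjusted p = 0.202, and 0.0338 with the lamb as a block), and CD14 at -0.28. CD3D at 0.25, CD3E at 0.10, CD86 at 0.14 and ITGB2 at 0.03 were higher in septum on average. The median of the 6 was 0.065, and TYROBP was the 1 of 6 that passed with the lamb as a block. CD4 was well above background on 0 of 20 arrays. The part of these cell types in the region differences was not tested.

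Among 528 other named genes, those whose level over the 20 arrays was most like that of a member are given as a description, since all share the arrays, their scaling and their slides. For ITGB6 A_70_P026752 they were FLT3LG, a haematopoietic cytokine (r = 0.684), ENDOG, a mitochondrial nuclease (r = 0.655), and LOC780442 (r = 0.638). For ITGA4 A_70_P026031 they were YWHAE, a 14-3-3 protein (r = 0.708), DKC1, of the RNA pseudouridine complex (r = 0.671), and COL3A1 (r = 0.665). For FGF7 A_70_P029932 they were NTN4, the secreted netrin 4 (r = 0.767), SLC16A1, a lactate transporter (r = 0.733), and SRSF3, a splicing factor (r = 0.708). For FGF7 A_70_P041667 they were CAPN1, a calcium-dependent protease (r = 0.870), SLC25A17, a peroxisomal carrier (r = 0.747), and again NTN4 (r = 0.714). NTN4 was itself lower in septum in 10 of 10 lambs, at -1.27 ± 0.57 (SD). After the group means were taken off, CAPN1 stayed at r = 0.846 with A_70_P041667, and NTN4 was at 0.540 with A_70_P029932 and 0.313 with A_70_P041667.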

How the data were processed

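Total RNA of septum and LV was read on 1-colour (Cy3) Agilent sheep arrays, 20 in all. The processed spot intensity came from Agilent Feature Extraction 10.1.1.1, which subtracted background, per the file headers, and these intensity values were not scaled between arrays. The authors also deposited a table of log2 values, with limma named and no version given in the submitters' processing notes. It was normalized separately in each region and served as an alternative within a region.

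Each array's 75th percentile was subtracted from its log2 processed intensities, and spots of one probe were averaged, without control spots and outlier flags (2 to 68 per array). Tests used limma 3.58.1 in R 4.3.3 with the data.table package (version 1.17.8), two-sided, on all probes, with Benjamini-Hochberg adjustment and a threshold of 0.05, and were tested on simulated data. Correlations and sequence checks used Python 3.11.15 with scipy 1.17.1.

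Septum and LV arrays of one treatment and number deviated together (r = 0.447 to 0.813 across probes, own partner highest in 10 of 10), so each such pair was taken as 1 lamb. Cortisol and control arrays of one number were not paired. The labels give 5 per group. No sample columns of other series were present (0).

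The 8 members were all probes named ITGB6, ITGA4 or FGF7. The members and gene lists were chosen with earlier results of these data known. From each list the 2 genes with the smallest cortisol p in either region, and 9 partner genes, were named where measured, and ITGB7 and FN1 could not be named on the array. For each of the 4 probes of the rule the 3 genes most correlated over 20 arrays were named. Alternatives were normexp correction (offset 50), quantile and median scaling, other filters, slide and replicate blocks, single slides, the deposited log2 table, leaving out each array or lamb, and, chosen after seeing the data, no scaling, the 3 lambs of slide 2, and leaving out the 2 lambs dim on A_70_P041666 or the lamb that stood apart on CLDN3. The number of arrays limits the precision.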

Additional observations from a re-analysis of the deposited data

Results flagged for a closer look

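FGF7 A_70_P029932 stood at 2.22 (log2, relative to the 75th percentile) on the LV array of cortisol lamb 1, far above the other 4 LV cortisol arrays at 0.88 to 1.16. It was the 1 value picked out by Dixon's test at the 95% level among 48 groups of 5 looked at for the members, and chance picks about 1 in 20. The LV array of control lamb 1 stood at a similar 2.13. On the neighbouring probe A_70_P029931 the same cortisol LV array read 0.04, inside its group.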

How the results depend on the processing

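No member passed for cortisol under any alternative run, and 0 probes passed in the 4 cortisol comparisons under each of them. The count between septum and LV, 55, moved to 1 with normexp background correction, 118 without a filter, 0 with slide as a fixed block, 0 on slide 2 alone and 1772 with the lamb as a replicate block, and to between 5 and 313 when 1 lamb was left out (313 without cortisol lamb 5). Septum minus LV moved by more than its SD on ITGB6 A_70_P026752 (-0.99 with normexp, -0.76 without scaling), on FGF7 A_70_P041667 (-0.27 and -0.16) and on FGF7 A_70_P029932 (-0.20 without scaling). Apart from A_70_P029931 every tested member was lower in septum under each alternative run. The replicate block on the numbers that cortisol and control arrays share left 0 probes in either region. In septum 3 of 5 such pairs correlated above 0.1 (lowest 0.0569) and in LV 4 of 5 (lowest 0.0734), with the same-numbered array as the best match for 3 of 5 in each region.

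Several small cortisol differences changed sign. With normexp they were 0.15 in septum, 0.031 in LV and 0.090 over both regions for ITGB6 A_70_P026751, 0.076 over both regions for ITGA4 A_70_P026031, and in septum -0.092 for FGF7 A_70_P029932 and 0.12 for FGF7 A_70_P041667. On slide 2 alone they were 0.27 in septum and 0.38 in LV for A_70_P026751, 0.16 in septum for A_70_P026752, 0.39 in septum and 1.05 in LV for A_70_P029931, and 0.067 in septum for A_70_P041667. In septum A_70_P029932 was -0.032 with median scaling and -0.018 on slide 1 alone, and in LV A_70_P029931 was 0.029 with slide as a block. The region difference of the cortisol effect on A_70_P029931 was -0.082 with normexp, -0.023 with median scaling and -0.19 with slide as a block, and on A_70_P041666 it was 0.11 with normexp. Leaving out 1 array or lamb changed signs for A_70_P029931 in septum (-0.27 to 0.012, without cortisol 3) and LV (-0.52 to 0.0088, without cortisol 2). In septum it did so for A_70_P026751 (-0.36 to 0.17) and A_70_P026752 (-0.47 to 0.11), both without cortisol 2, and for A_70_P029932 (-0.10 to 0.13, in 5 of 10 cases). Over both regions it did so for ITGA4 A_70_P026031 (-0.22 to 0.014, without cortisol 5) and FGF7 A_70_P029932 (-0.26 to 0.018, without control 1), and between regions for A_70_P029931 (-0.17 to 0.26, in 6 of 10). The causes were not tested. Of 635 alternative values of the members 36 cortisol differences changed sign. Of the septum minus LV values 9 moved by more than the SD, among them also ITGB6 A_70_P026751 without scaling (-0.62) and FGF7 A_70_P029931 on slide 2 alone (-0.55) and without scaling (0.73). Septum minus LV on A_70_P029931, 0.06 in the main fit, also had the other sign in 5 of its 20 alternatives, which the 36 do not count. Dim probes well above background on only some arrays drop out where every array had to be above background, and have no value there. With 5 against 5 arrays the SE of a member's cortisol difference was 0.19 to 0.71, and the dim probes were near background on part of the arrays.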
